A study of Mus musculus with 12 samples.

Results

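Fibroblasts grown from the inguinal fat pad, which lies under the skin of the groin, were compared with fibroblasts grown from the epididymal fat pad, which lies in the abdomen beside the epididymis. Both were GFP+ cells, that is, cells that carried the fluorescence of a Zfp423-GFP transgene when they were sorted from cultures of the stromal vascular fraction, the tissue left once fat cells are removed. The comparison used 6 of the 12 arrays of the series, namely 3 of inguinal GFP+ cells (replicates 1 to 3) and 3 of epididymal GFP+ cells (replicates 1 to 3), chosen by their labels. The 6 arrays of GFP- cells, which were sorted from the same kind of culture in both depots, served as the second population in which the depot difference could be measured. All 4 groups had the same source, male mice with the Zfp423-GFP transgene, 6 to 8 weeks old and of mixed FVB and C57BL/6 background, so every group carried the transgene and no group came from mice without it. After sorting, the cells went back into medium with fetal bovine serum and were collected while still dividing. They had therefore left the tissue, had been cultured before and after the sort, and had not been made to differentiate. The labels do not say which regulatory sequence drives the reporter, or name the animal or culture behind each replicate. The p-values thus reflect only how far the replicate arrays differ, and that spread may be technical.

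Preadipocytes are the fibroblast-like cells that divide and then mature into fat cells. Fat pads arise from different embryonic mesoderm, and their precursors are known to keep a positional programme in culture, carried by Hox and T-box transcription factors, that differs between fat under the skin and fat inside the abdomen. Visceral depots are covered by mesothelium, a sheet of cells lining the body cavity, and its embryonic relatives express the transcription factor Wt1. The series asks which genes characterise the preadipocyte fibroblasts of each depot, and the depot contrast in GFP+ cells bears on that question most directly.

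Values are array signals on a linear scale. Differences are given as inguinal minus epididymal on the scale of log2(signal + 16), so a positive value means higher in inguinal cells, and the change of a dim gene is understated. A gene is said to differ, or to be higher in a depot, where limma's test gave an adjusted p under 0.05 over the 12393 genes measured. The lowest 30% of genes by mean over the 12 arrays, at or below a signal of 77.7, are called weakly detected. The median signal of an array lay between 347.3 and 353.5 in inguinal GFP+ cells and between 369.0 and 371.2 in epididymal GFP+ cells. Arrays of a group correlated at 0.993 to 0.9935 over all genes in inguinal GFP+ cells and at 0.9929 to 0.9941 in epididymal GFP+ cells, against 0.9734 to 0.9772 between the depots. The 3 arrays per group limit the precision.

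The depot labels were checked against 4 marker genes. Dkk2, which encodes a secreted modulator of Wnt signalling, gave signals of 6723, 5947 and 6694 in the inguinal replicates and 30.14, 20.71 and 12.69 in the epididymal ones. Shox2, a homeobox factor of limb patterning, gave 2506, 2063 and 2603 against 9.53, 38.85 and 20.69. Both were high in every inguinal array and among the weakly detected values in every epididymal array. Wt1, a zinc-finger factor of the embryonic body cavity lining, gave 62.89, 56.73 and 65.73 in inguinal cells and 3678, 3800 and 3816 in epididymal cells. Tcf21, a basic helix-loop-helix factor of visceral mesoderm, gave 45.44, 21.79 and 29.76 against 1414, 1495 and 1364. The 4 genes thus separated the depots without overlap in the direction of the labels, and since they served as markers their values are a description. Their differences were 7.47 ± 0.26 (SE) for Dkk2, 6.01 ± 0.25 for Shox2, −5.60 ± 0.14 for Wt1 and −4.93 ± 0.18 for Tcf21.

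Zfp423, the zinc-finger regulator of fat commitment whose reporter was used for the sort, was itself higher in epididymal cells. Its signal was 150.8, 112.4 and 110 in the inguinal arrays and 238.6, 278.3 and 208.3 in the epididymal arrays. The groups did not overlap, and the difference was −0.88 ± 0.18 (SE, adjusted p 0.000704). In GFP- cells Zfp423 averaged 57.42 in the inguinal and 29.42 in the epididymal group. GFP+ cells were thus above GFP- cells of the same depot in mean signal, and the 2 GFP+ groups differed in the gene whose reporter they were sorted by.

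The depots differed across much of the transcriptome, and most differences were small. Of 12393 genes, 6292 (50.8%) differed, 2922 (23.6%) of them higher in inguinal and 3370 (27.2%) higher in epididymal cells. Which depot had the larger count depended on the scaling, since median centring of the arrays gave 3275 inguinal and 2973 epididymal genes, and quantile normalization gave 3213 and 2750. With weakly detected genes left out and no rescaling, the counts were 2896 and 2974, so much of the epididymal excess lay in dim genes. The 3 values of one depot did not overlap with those of the other for 6935 genes (56%). A difference of at least 2-fold remained for 715 genes (5.77%), of which 209 (1.69%) were higher in inguinal and 506 (4.08%) higher in epididymal cells. At 8-fold or more the counts were 21 and 30. Because about every other gene differed, counts of differing members in the gene groups described next are read against 50.8%, and counts of members that differed by at least 2-fold against 5.77%. The median difference over all genes was −0.04.

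**Figure D1:**
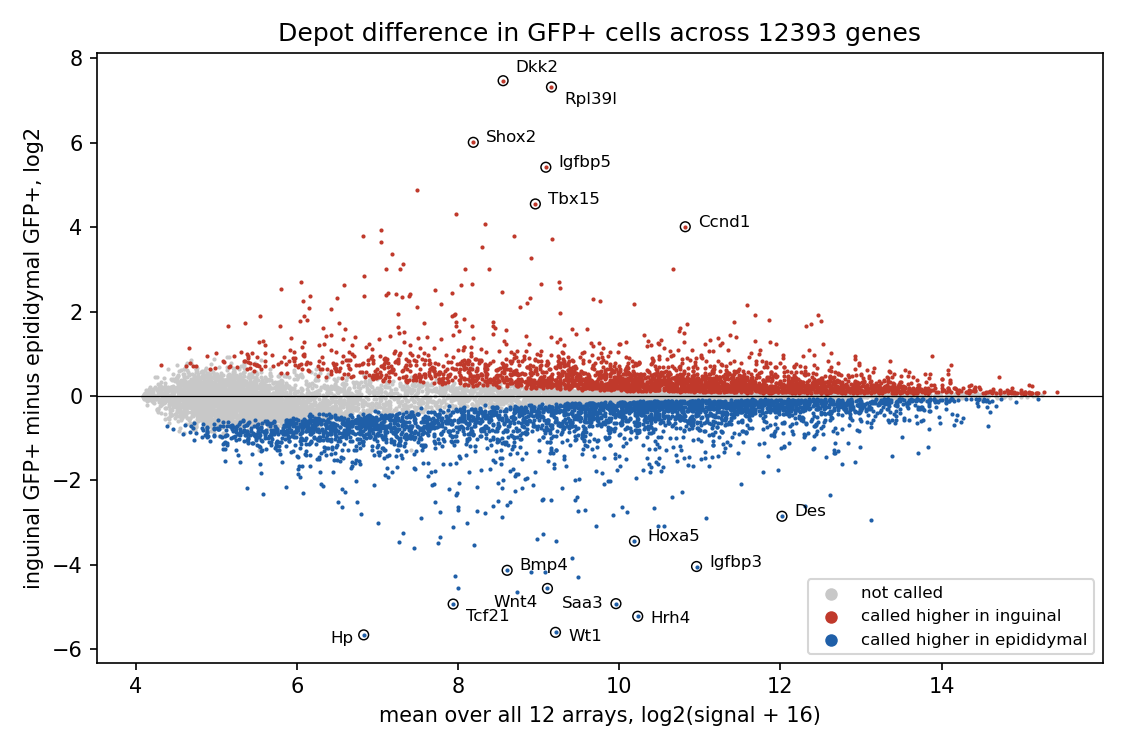
Mean log2(signal + 16) over all 12 arrays (x axis) against the inguinal minus epididymal difference in GFP+ cells (y axis, log2), 1 point per gene, with genes higher in inguinal cells in red, those higher in epididymal cells in blue and the rest in grey. The cloud is centred close to 0, and single genes reach 7.47 on the inguinal side (Dkk2) and −5.66 on the epididymal side (Hp).

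The inguinal side was led by Dkk2, by Rpl39l, which encodes a variant ribosomal protein, and by patterning and secreted genes. Rpl39l gave 6550, 6721 and 6149 in inguinal and 25.89, 11.88 and 41.68 in epididymal cells, a difference of 7.32 ± 0.18 (SE, adjusted p 5.7e-14). Where a depot was weakly detected, as here, the size of the difference depends on the pseudocount and is no measured fold. Igfbp5, a secreted protein that binds insulin-like growth factors, gave 4322, 3853 and 4244 against 76.59, 78.06 and 87.65. Its difference was 5.42 ± 0.09 on the probe set used, while another probe set of Igfbp5 gave only 0.27. Tbx15, a T-box factor of the skeleton and of skin patterning, gave 2697, 2323 and 2395 against 90.95, 78.83 and 101.2. It was 23.44-fold higher in inguinal cells, with all 3 epididymal values close to the limit for weak detection. Rspo2, a secreted amplifier of Wnt signalling, gave 1890, 1502 and 2063 against 39.59, 47.59 and 48.62. Ccnd1 encodes cyclin D1, which drives cells from G1 toward DNA synthesis, and was present in both depots. Its signal was 5037, 7495 and 5088 in inguinal and 349, 327.8 and 356.3 in epididymal cells, with replicate 2 the brightest inguinal array, and the difference was 4.01 ± 0.13. The remaining genes among the leading 15 were Gjb2, a gap junction protein (4.32), the granzyme genes Gzme (4.07) and Gzmd (3.94), the LIM-homeobox factor Lhx8 (3.80), the heparin-binding growth factor Ptn (3.79), the matrix protein Tgfbi (3.73), the retinoic acid binding protein Crabp1 (3.64) and Hoxa10 (3.52). The probe sets of Gzme and Gzmd can bind RNA of related granzyme genes, so which of them was expressed is uncertain. In 9 of the 15, the epididymal mean was weakly detected.

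The epididymal side was led by genes of acute-phase proteins, of secreted signals and of coelomic transcription factors. Hp, which encodes the haemoglobin-binding plasma protein haptoglobin, gave 6.46, 14.24 and 10.55 in inguinal and 1205, 1418 and 1302 in epididymal cells, a difference of −5.66 ± 0.21 (SE, adjusted p 4e-12). Hrh4, a histamine receptor gene, gave 121.6, 360.5 and 319.3 against 9442, 10555 and 9050. Saa3, an acute-phase serum amyloid, gave 189.4, 102.9 and 172.6 against 5030, 5085 and 4987. For these genes the epididymal arrays lay within a narrow band, and no inguinal array came near it. Wnt4, a Wnt ligand of kidney and gonad development, gave 82.99, 71.93 and 47.29 against 1841, 2035 and 1873. Upk3b, a uroplakin used as a mesothelial marker, gave 14.02, 8.31 and 9.28 against 591.9, 581.6 and 625.2. Bmp4, a secreted factor that can commit mesenchymal cells to the fat lineage, gave 54.7, 37.51 and 28.8 against 979.2, 923.7 and 956.4. Its difference was −4.13 ± 0.15. Igfbp3 encodes the main carrier of insulin-like growth factors in blood, and its signal was 472.1, 207.8 and 645.7 against 6496, 7364 and 6635. The inguinal replicates of Igfbp3 spread widely, yet all stayed far below the epididymal ones (difference −4.04 ± 0.26). Wt1 and Tcf21 were also among the leading 15, with the kinase Stk26 (−4.64), the protease inhibitor Slpi (−4.30), the glutathione transferase Gsta3 (−4.26), the chaperone clusterin, Clu (−4.18), the zinc-finger gene Bnc1 (−4.17) and the collagen-processing enhancer Pcolce2 (−3.83). In 11 of the 15, the inguinal mean was weakly detected.

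**Figure D2:**
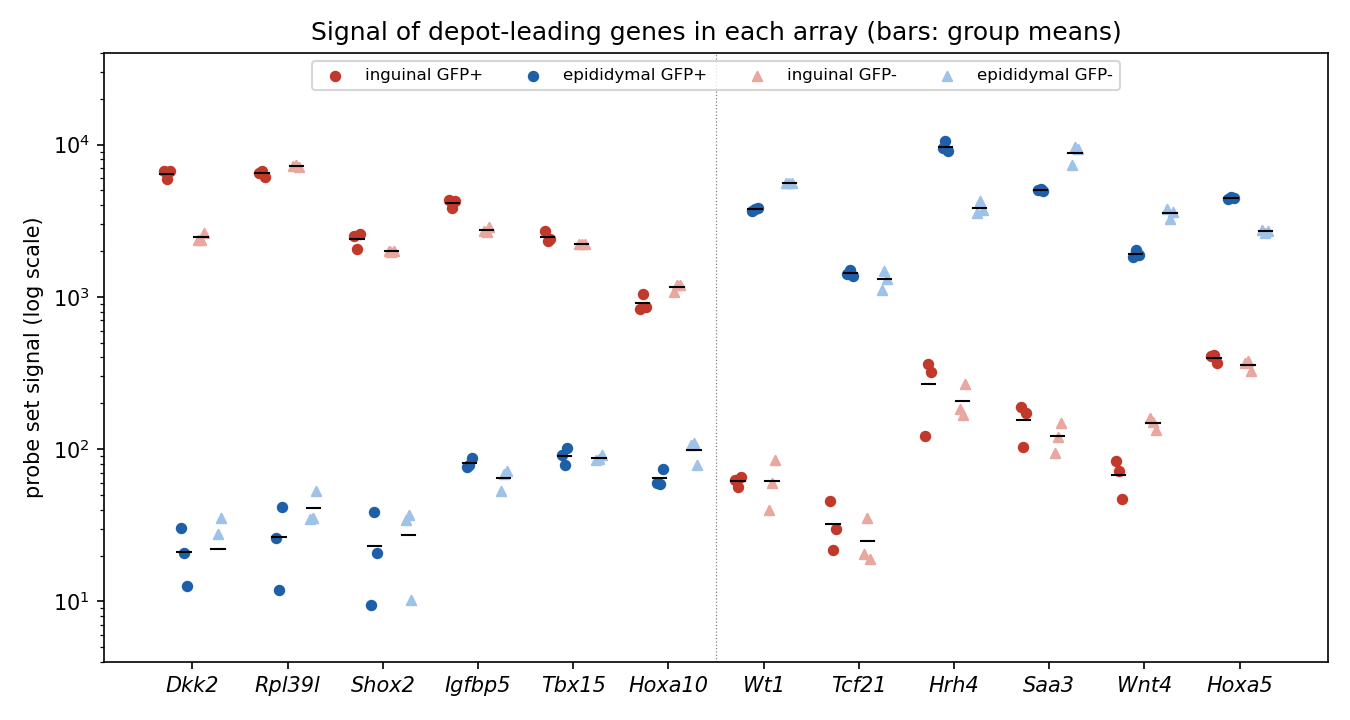
Signal (log axis) of 12 leading genes in inguinal (red) and epididymal (blue) cells, with 1 point per array, circles for GFP+, paler triangles for GFP- cells and bars for group means. For the genes shown, the 3 inguinal and the 3 epididymal GFP+ points do not overlap, as with 6723, 5947 and 6694 against 30.14, 20.71 and 12.69 for Dkk2.

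Hox genes encode homeobox factors that give cells their position along the body axis, and are numbered by paralogue group from the head end (1) to the tail end (13). Of 39 listed Hox genes, 31 were measured, of which 12 were weakly detected. Of the measured genes, 19 differed in either direction, and 11 differed by at least 2-fold. Of the 31, 4 were higher in inguinal, 15 were higher in epididymal cells and 12 did not pass the test. The median was −0.51 against −0.04 over all genes. Hoxa10 was the highest-ranked Hox gene on the inguinal side, with signals of 834.8, 1040 and 855.4 against 60.19, 59.07 and 74.24. Hoxa9, next to it in the cluster, gave 1474, 1356 and 1442 against 183.7, 214.5 and 219.6, a difference of 2.70 ± 0.09, although a second probe set of Hoxa9 gave 0.37. Hoxb9 (0.84) and Hoxc13 (0.59) were the other inguinal Hox genes, both at less than 2-fold. On the epididymal side Hoxa5 led, with 406.8, 418.2 and 365.7 in inguinal and 4426, 4499 and 4457 in epididymal cells, which was 10.86-fold. Thus genes of one cluster, Hoxa5 and Hoxa10, differed between the depots in opposite directions (−3.44 and 3.52).

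The direction of the Hox differences varied with the paralogue number. In groups 1 to 8, 18 genes were measured, 0 were higher in inguinal cells, 14 were higher in epididymal cells and 4 did not pass the test, with a median of −0.89. In groups 9 to 13, 13 were measured, 4 were higher in inguinal cells, 1 was higher in epididymal cells and 8 did not pass the test, with a median of 0.28. Of these 8, Hoxa13, Hoxb13, Hoxd10, Hoxd11, Hoxd12 and Hoxd13 had means under 77.7 in both GFP+ groups. The median is the value of Hoxd13, at means of 36.83 in inguinal and 28.96 in epididymal cells, so it says little about expressed genes. The division between groups 8 and 9 was chosen after the values were seen and is a description. Hoxd9 (−1.20) was the epididymal exception, at dim means of 24.29 in inguinal and 73.37 in epididymal cells. After Hoxa5 the larger epididymal differences were those of Hoxd8 (−2.44), Hoxc4 (−1.95), Hoxa2 (−1.81), Hoxc5 (−1.81), Hoxa7 (−1.74) and Hoxa3 (−1.73). The changes of cluster B were smaller, from −0.91 for Hoxb5 to 0.84 for Hoxb9. Hoxc9, reported from other work as a subcutaneous fat gene, had a difference of 0.14 ± 0.07 and did not pass the test (adjusted p 0.113).

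**Figure D3:**
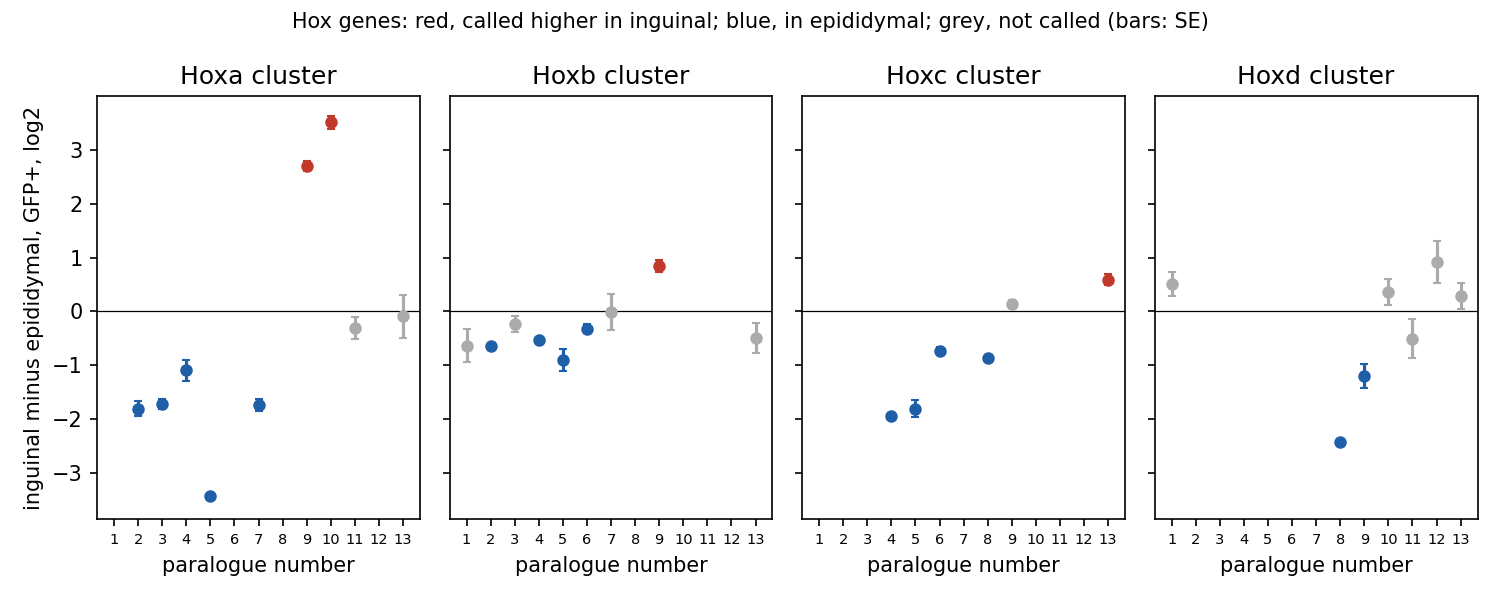
Inguinal minus epididymal difference (log2, bars of SE) of each measured Hox gene in GFP+ cells by paralogue group, in 1 panel per cluster, with inguinal genes in red, epididymal in blue and those that did not pass the test in grey. Points of groups 1 to 8 lie mostly below 0 down to −3.44 (Hoxa5), and the highest points are Hoxa9 (2.70) and Hoxa10 (3.52).

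Transcription factors of limb and body wall patterning were split between the depots, with the larger differences on the inguinal side. Of 38 measured, 15 were higher in inguinal cells, 9 were higher in epididymal cells and 14 did not pass the test. Weak detection applied to 14 of the 38. At 2-fold or more, 8 were inguinal and 4 epididymal. Besides Shox2, Tbx15 and Lhx8, the inguinal genes included Irx2 (3.28 ± 0.10), Irx5 (2.62 ± 0.13), Irx1 (2.31 ± 0.12) and Irx3 (1.57 ± 0.09), all 4 from the Iroquois family of homeobox factors. Irx2 gave 1515, 1298 and 1374 in inguinal and 122.9, 141.9 and 124.3 in epididymal cells. Twist2 (1.01), a bHLH factor of dermal fibroblasts, and its relative Twist1 (0.78) were inguinal too. On the epididymal side were Tbx18 (−1.27), a T-box factor of the epicardium and ureter mesenchyme, Meis1 (−1.18), a Hox cofactor, and Foxp2 (−1.11). Pbx3, another Hox cofactor, had similar means of 1296 and 1317 and did not pass the test.

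Of 21 measured transcription factors of visceral and coelomic mesoderm, 10 were higher in epididymal cells, 1 was higher in inguinal cells and 10 did not pass the test. The median was −0.55, and 6 of the 10 epididymal genes differed by at least 2-fold. These were Wt1, Tcf21, Bnc1, the nuclear receptor Nr2f1 (−2.02 ± 0.06) and the zinc-finger factors Gata5 (−1.62) and Gata6 (−1.46). Nr2f1 was present in both depots, at 1067, 925.1 and 1007 in inguinal and 4221, 4001 and 4087 in epididymal cells. In GFP- cells Nr2f1 was instead higher in inguinal cells (difference 2.87). The inguinal exception in GFP+ cells was Osr1 (1.25 ± 0.10), a zinc-finger factor of intermediate mesoderm and of connective tissue precursors. Foxc2 had a difference of 0.16 that did not pass the test. Foxc2 passed it, and the inguinal count of 1 became 2, after median centring (0.20, limma adjusted p 0.0399), with the replicate block (0.16, 0.045) and without inguinal GFP+ replicate 3 (0.22, 0.0277).

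Genes reported from other work as depot markers were examined as lists that contained the 4 markers above, so their counts are not independent of the marker check. Of 8 subcutaneous genes, 7 were higher in inguinal cells, with Hoxc9 the exception, and their median was 2.82. The smaller members were En1 (0.49) and Twist1 (0.78). Sfrp2, a secreted Wnt modulator, differed by 2.12 ± 0.34, but its signal was low and uneven at 211.1, 90.85 and 349.2 against 15.82, 47.13 and 37.72. All 8 visceral genes were higher in epididymal cells, with a median of −2.73. Thbd, the thrombin receptor thrombomodulin, differed by −0.90 and Hoxc8 by −0.87, while Gpc4, a cell-surface proteoglycan, differed by only −0.08 with means of 11459 and 12103. After median centring Hoxc9 passed the test and only 7 of the 8 visceral genes did.

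Regulators that promote fat cell formation differed in both directions. Of 24 measured, 6 were higher in inguinal cells, 11 were higher in epididymal cells and 7 did not pass the test, and the median was −0.13. Pparg, the master nuclear receptor of adipogenesis, gave 796.1, 912.3 and 805.2 in inguinal and 237.7, 221.6 and 183.2 in epididymal cells. It was 3.722-fold higher in inguinal cells (difference 1.90 ± 0.15). Ebf3, a relative of early B-cell factor that promotes adipogenesis, gave 673.2, 538.3 and 548 against 31.67, 49.45 and 47.74. Epididymal cells had more Nfib, a nuclear factor I gene that acts with Pparg in fat cells, at 298, 268.2 and 304.9 against 2477, 2685 and 2482, although its 4 probe sets ran from −3.12 to −0.14. Cebpa (−0.60), Cebpb (−0.40) and Nfia (−0.59) were epididymal by less than 2-fold, and Cebpd did not pass the test (0.08), although it passed at 0.12 after median centring and at −0.26 when all its probe sets were averaged. Pparg and Zfp423, both regulators of the fat lineage, therefore differed in opposite directions. Of 22 inhibitors of fat cell formation, 10 were higher in epididymal cells, led by Wnt5a (−1.28) and Irf4 (−1.06), the call of Irf4 being lost when its probe sets were averaged. Another 4 were higher in inguinal cells, led by Twist2 (1.01) and Gata3 (0.95).

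Genes of mature fat cells differed in both directions. Of 22 measured lipid genes, 8 of them weakly detected, 4 were higher in inguinal and 9 in epididymal cells (59.1% against 50.8% of all genes), 0 differed by 2-fold against 5.77% of all genes, and the differences ran from −0.80 to 0.98. The lipid droplet coat gene Plin2 (0.98) and the lipase Mgll (0.71, with another probe set at −0.05) were inguinal, and Plin4 (−0.80) and the fatty acid binding protein Fabp5 (−0.79) were epididymal. Adipoq, which encodes the fat cell hormone adiponectin, averaged 22.34 and 17.09, and Cd36 averaged 14.45 and 18.92. Those values are in the range of olfactory receptor genes, which fibroblasts are not thought to use and whose median signals were 21.6 and 21.48. The 31 olfactory receptor genes still had a median difference of −0.22, with 0 inguinal and 3 epididymal, so dim genes leaned to the epididymal side. Of 17 brown and beige fat genes, 9 of them weakly detected, 3 were inguinal and 6 epididymal (52.9% against 50.8% of all genes). Lhx8 led the inguinal genes, and Ppargc1b (−1.51) and Dio2 (−1.51) led the epididymal ones. Ppargc1b was itself weakly detected, and another probe set of Dio2 gave −0.60. Ucp1, the uncoupling protein of brown fat, averaged 28.37 and 20.09 and did not pass the test.

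Markers of fat progenitors and of fibroblast surfaces separated by gene rather than by depot. Of 23 measured, 6 were higher in inguinal and 11 in epididymal cells, and 7 differed by at least 2-fold. Dpt, the matrix protein dermatopontin, gave 920.9, 543.6 and 1067 in inguinal and 65, 101.7 and 97.93 in epididymal cells (difference 3.01 ± 0.24). Cd24a, a surface marker of fat progenitors in mice, differed by 2.29 ± 0.15 and Thy1 by 1.24. Lum, the proteoglycan lumican, gave 275.6, 129.8 and 353.7 against 2281, 2665 and 2242, a difference of −3.26 ± 0.27. Inguinal replicate 2 was the lowest array of its group for both Dpt and Lum. Dpp4, a marker of early progenitors in mouse fat, differed by −2.28, with inguinal cells weakly detected at a mean of 14.11, and its other probe set gave −0.31. Pdgfra, the platelet-derived growth factor receptor of mesenchymal progenitors, averaged 6026 and 6732 and did not pass the test.

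Sterol and fatty acid synthesis genes had a nearly uniform direction. Cells make cholesterol through the mevalonate pathway, whose enzymes are under shared control of the SREBP transcription factors. Of 22 measured genes, 20 were higher in inguinal cells, 0 were higher in epididymal cells and 2 did not pass the test, namely Mvd (−0.20) and Elovl5 (−0.01). The median was 0.96 against −0.04 over all genes, and 11 of 22 differed by at least 2-fold against 5.77% of all genes. Another probe set of Mvd gave 1.46, and another of Fdps 0.16. Idi1, which isomerises isopentenyl diphosphate, gave 3038, 2970 and 3049 in inguinal and 1095, 1046 and 1061 in epididymal cells. Sqle, the squalene epoxidase, gave 4625, 4131 and 4859 against 1742, 1680 and 1718. The depots did not overlap for either gene, and the differences were 1.49 ± 0.04 and 1.39 ± 0.05. Between 1 and 1.3 lay Dhcr7 (1.29), Cyp51 (1.27), Elovl6 (1.25), Msmo1 (1.22), Nsdhl (1.20), Stard4 (1.19), Fdps (1.09) and Hmgcs1 (1.01). The gene of the regulator SREBP-2 itself, Srebf2, was also inguinal (0.82), and that of SREBP-1, Srebf1, differed by 0.17. Summed over the list, signals were 73482 to 78312 in inguinal and 44723 to 45077 in epididymal arrays.

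Because the sterol genes moved together, the promoters of 3 of them are shown, chosen after their values were seen. Each is the 250 bases upstream of the start of the gene in RefSeq, assembly GRCm38.p6, written 5′ to 3′ on the strand of the gene. Capitals mark TCACNCCA, a form of the sterol regulatory element to which SREBPs bind, and CCAAT, the box to which NF-Y binds, with both strands searched for both motifs. The capitals of the 2 motifs do not overlap in these windows. Hmgcs1 encodes the synthase that makes the precursor of mevalonate (chr13:119690101-119690350, plus strand), Msmo1 a demethylase of sterol intermediates (chr8:64733579-64733828, minus strand), and Idi1 lies at chr13:8885356-8885605 on the plus strand.
Hmgcs1: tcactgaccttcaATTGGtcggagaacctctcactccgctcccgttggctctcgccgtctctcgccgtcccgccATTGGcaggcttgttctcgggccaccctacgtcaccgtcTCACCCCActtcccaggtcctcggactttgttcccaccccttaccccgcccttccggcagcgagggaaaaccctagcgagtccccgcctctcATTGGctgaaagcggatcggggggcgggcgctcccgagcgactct
Msmo1: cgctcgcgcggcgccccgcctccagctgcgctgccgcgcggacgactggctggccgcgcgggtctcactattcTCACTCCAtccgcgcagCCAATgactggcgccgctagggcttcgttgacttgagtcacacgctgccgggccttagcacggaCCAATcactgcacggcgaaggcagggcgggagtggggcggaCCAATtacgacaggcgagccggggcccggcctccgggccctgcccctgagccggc
Idi1: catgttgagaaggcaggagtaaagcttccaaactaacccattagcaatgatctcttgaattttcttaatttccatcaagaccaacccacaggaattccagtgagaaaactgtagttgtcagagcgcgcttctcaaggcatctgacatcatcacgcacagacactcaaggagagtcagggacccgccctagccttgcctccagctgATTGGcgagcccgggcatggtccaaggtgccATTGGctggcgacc
Hmgcs1 and Msmo1 each held 1 TCACNCCA and 3 CCAAT, and Idi1 held 0 and 2. Of the 22 measured genes of the list, 17 were matched to a window, with 20 windows in all. TCACNCCA was present in 3 of the 20 windows (15%) and in 3.67% of all 32851 windows, and CCAAT in 14 of 20 (70%) and in 33.8% of all windows. These matches describe the letters in the windows and show neither binding nor cause.

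Cell cycle genes were mostly higher in inguinal cells, by small amounts. Of 38 measured, 28 were higher in inguinal cells, 3 were higher in epididymal cells and 7 did not pass the test, with a median of 0.59. Only Ccnd1 and Cdkn2a of these differed by 2-fold or more. The proliferation marker Mki67 differed by 0.74 ± 0.09, the replication clamp gene Pcna by 0.65 ± 0.03 and Mcm3, of the replicative helicase, by 0.94, although the probe sets of Mcm3 ran from −0.06 to 1.03. Cdkn2a, the locus of the cell cycle inhibitors p16 and p19Arf, gave 756.1, 665.1 and 1054 in inguinal and 147.8, 106.1 and 120.5 in epididymal cells. Genes that drive division and this inhibitor of division were therefore higher in the same depot. The epididymal genes were Cdkn1b (−0.45), Bub1b (−0.36) and Rrm1 (−0.13). Cultures of the depots thus differed in cell cycle transcripts when they were collected, and the part of this in the sterol result was not tested.

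**Figure D4:**
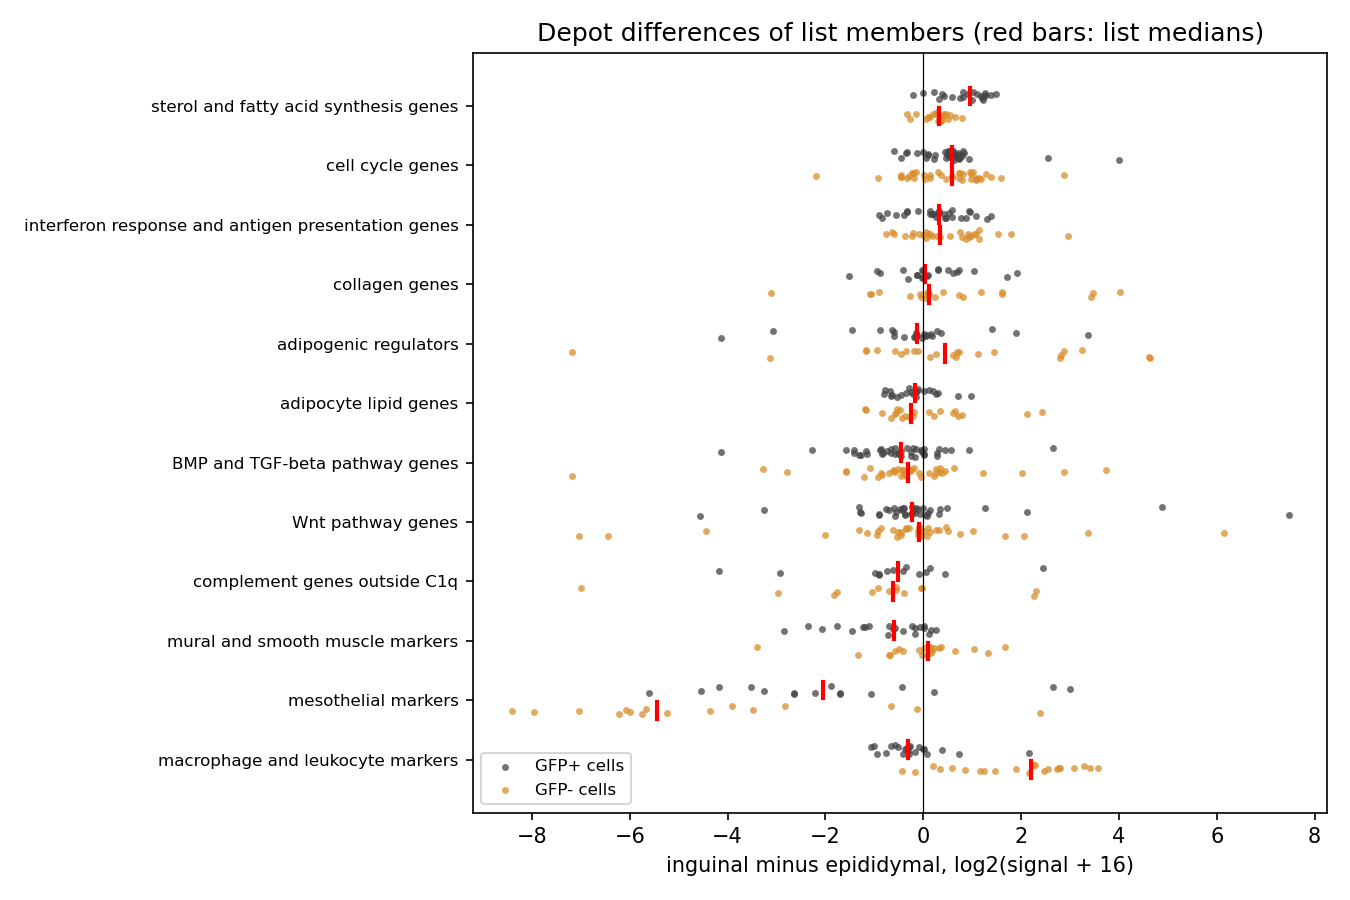
Inguinal minus epididymal difference (log2) of the members of 12 gene groups, with 1 point per measured gene, dark for GFP+ and orange for GFP- cells, and red bars at the medians. In GFP+ cells sterol and fatty acid synthesis genes (median 0.96) and cell cycle genes (0.59) lie mostly above 0, and mesothelial markers (−2.05) and mural markers (−0.59) mostly below it.

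Matrix genes were divided. Of 22 measured collagen genes, 11 were higher in inguinal and 6 in epididymal cells, with a median of 0.04. The 2 largest inguinal differences were those of Col6a2 (1.92 ± 0.10) and Col6a1 (1.71 ± 0.10), which encode chains of the same microfibrillar collagen. Col6a2 gave 11151, 8081 and 11462 in inguinal and 2576, 2632 and 2761 in epididymal cells. Col4a6 (−1.52), of basement membranes, and Col14a1 (−0.94) were epididymal, and the fibrillar collagen gene Col3a1 had a difference of −0.01 that did not pass the test but became −0.18 (limma adjusted p 0.0113) when its probe sets were averaged. Among 45 matrix glycoprotein and proteoglycan genes, 19 were higher in inguinal and 17 in epididymal cells. Fmod, the proteoglycan fibromodulin, differed by 1.81 ± 0.08, and Dpt was inguinal as given above. On the epididymal side Lama1, a laminin chain of basement membranes, gave 276.7, 210.7 and 273.6 against 1982, 1773 and 2085. Lum, Efemp1 (−2.65) and Dcn (−1.56) were epididymal as well. In GFP- cells Lama1 (3.07) and Col14a1 (3.42) were instead higher in inguinal cells. In GFP+ cells 8 of 26 proteases and inhibitors were inguinal and 13 epididymal. Only the plasminogen activator Plau differed by 2-fold or more (−1.79 ± 0.07).

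Genes of BMP and TGF-beta signalling were mostly higher in epididymal cells. These are secreted ligands that act through SMAD proteins, and the ID genes are direct targets of the BMP branch. Of 41 measured, 24 were higher in epididymal cells, 5 were higher in inguinal cells and 12 did not pass the test, with a median of −0.45. Among ligands, Bmp4 led, followed by Tgfb3 (−1.31) and Bmp6 (−1.17). The targets Id4 (−2.27 ± 0.05), Id2 (−1.57), Id1 (−1.42) and Id3 (−0.84) were all epididymal. Id4 gave 685.8, 713.4 and 655 in inguinal and 3229, 3378 and 3512 in epididymal cells. Of the secreted antagonists, Grem1 (gremlin) was inguinal, at 599.1, 810.4 and 642.4 against 82.37, 104.8 and 95.42 (difference 2.66 ± 0.17), and Fst (follistatin) was epididymal (−1.15). Inhbb, an activin subunit, was inguinal on the probe set used (0.93), and another of its probe sets gave −0.89, so its direction is uncertain.

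Wnt pathway genes included leading genes of both depots. Of 38 measured, 4 were higher in inguinal cells, 17 were higher in epididymal cells and 17 did not pass the test, and the median was −0.24. All 4 inguinal genes encode secreted modulators, namely Dkk2, Rspo2, Sfrp2 and Dkk3 (1.26). The epididymal side was led by Wnt4 and by Rspo1 (−3.25 ± 0.20), which had 2.48, 7.3 and 15.45 in inguinal and 241.9, 216.4 and 177.6 in epididymal cells. Of the R-spondins, which amplify Wnt signals at the receptor, Rspo2 was thus higher in inguinal and Rspo1 in epididymal cells. The ligand Wnt5a gave 1280, 1414 and 1250 against 3153, 3273 and 3174. Ctnnb1, which encodes beta-catenin, and the general Wnt target Axin2 had differences of 0.04 and −0.10 that did not pass the test, though Ctnnb1 passed at 0.08 after median centring.

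Growth factor genes of the IGF, FGF and PDGF families showed differences at both ends, with 10 of 33 inguinal, 16 epididymal and 13 beyond 2-fold. The binding proteins of insulin-like growth factors were split, with Igfbp5 inguinal and Igfbp3, Igfbp4 (−1.29) and Igfbp2 (−1.25) epididymal. The ligand Igf1 was epididymal (−1.10 ± 0.04). Hgf, the hepatocyte growth factor, gave 1784, 1445 and 1736 in inguinal and 281.5, 316.3 and 263.9 in epididymal cells. The ligands Fgf7 (1.30) and Fgf18 (−1.48) differed in opposite directions. Of 20 retinoid genes, 4 were inguinal and 7 epididymal. The binding proteins Crabp1 and Crabp2 (1.13) were inguinal, and the retinoic acid synthesising enzyme Aldh1a3 was epididymal, at 160.8, 275.9 and 171.9 against 1770, 1934 and 1693. The related enzymes Aldh1a1 (−1.15) and Aldh1a2 (0.78) differed in opposite directions. Of 16 steroid receptor and enzyme genes, 5 were higher in each depot, led by Hsd17b7 (1.23), which also acts in cholesterol synthesis, and by the cholesterol transporter Star (−1.21).

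Inflammatory genes did not share a direction. Of 36 chemokine and inflammatory genes, 9 were inguinal and 14 epididymal. The inguinal ones included the monocyte attractants Ccl8 (3.02 ± 0.16), Ccl7 (2.15) and Ccl2 (1.32) and the interleukin-1 antagonist Il1rn (3.0 ± 0.23). The epididymal ones included Hp and Saa3 and the cytokine gene Il6 (−1.48 ± 0.06). Of 14 complement genes, 8 were epididymal and 1, Masp1 (2.45), was inguinal, a count that became 2 without inguinal GFP+ replicate 3. The 5 probe sets of Masp1 ran from −0.07 to 2.98, so its direction rests on part of them. Serping1, the C1 inhibitor, gave 3936, 3365 and 4222 in inguinal and 29360, 29296 and 28953 in epididymal cells. Interferon response and antigen presentation genes were more often inguinal, with 17 of 29 against 5, a median of 0.32 and the largest difference at 1.39 (Usp18). The epididymal count of 5 fell to 2 without epididymal GFP+ replicate 2 or 3, and to 3 without inguinal GFP+ replicate 1 or 3 or inguinal GFP- replicate 3. Of 24 imprinted genes, 6 were inguinal and 8 epididymal. Plagl1, a growth-suppressing zinc-finger gene, led the latter (−2.62 ± 0.08), and another of its probe sets gave −0.31.

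Markers of other cell types were measured because sorted cultures can hold more than fibroblasts, and in cultured cells a larger share of such cells and more RNA per cell cannot be told apart. Of 16 measured mesothelial markers, 13 were higher in epididymal cells and 2 in inguinal cells, and 12 of the 13 differed by at least 2-fold. Their summed signal was 3374 to 3674 in inguinal GFP+ arrays, 12026 to 12518 in epididymal GFP+ arrays and 65982 to 70303 in epididymal GFP- arrays. Defining markers were not near 0 in epididymal GFP+ cells, with means of 599.6 for Upk3b, 180.8 for Msln (mesothelin), 332.9 for Krt8 and 551.7 for Krt18, and in the epididymal GFP- cells they were 9459, 2331, 3731 and 3657. The keratins Krt7 (3.01 ± 0.11) and Krt19 (2.66 ± 0.11) went the other way. Krt7 gave 593.4, 573.7 and 524.6 in inguinal and 52.93, 52.74 and 62.57 in epididymal cells. The list holds Wt1, Bnc1, Upk3b and Rspo1, and it moved in the same direction as Bmp4, Slpi and Clu. Its part in those results was not tested. Tcf21 had nearly the same mean in epididymal GFP+ (1424) and GFP- cells (1302), while Nr2f1 averaged 4103 in the former and 145.9 in the latter.

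Smooth muscle and mural markers also moved with the depot. Of 22 measured, 15 were higher in epididymal cells, 1 was higher in inguinal cells and 8 differed by at least 2-fold. Des (desmin) gave 1558, 1543 and 1495 in inguinal and 11250, 10957 and 11331 in epididymal cells, and Myh11, the smooth muscle myosin, gave 2566, 2817 and 2557 against 14254, 13073 and 13458. The second probe set of Des gave −0.68. The summed signal was 172638 to 179025 against 235735 to 240248. Acta2 and Tagln, which proliferating fibroblasts also express strongly, had differences of 0.26 and 0.02. That of Tagln did not pass the test, and that of Acta2 turned to −0.38 when all probe sets were averaged. Of 22 macrophage and leukocyte markers, 2 were inguinal and 9 epididymal (50% against 50.8% of all genes). Their summed signal was 6791 to 7618 against 4875 to 5517. Their epididymal count fell to 5 without epididymal GFP+ replicate 3, and the inguinal count to 1 without that array or inguinal GFP+ replicate 1 or 3. The defining markers Ptprc (means 9.313 and 16.82) and C1qa (12.35 and 21.89) were at background in both GFP+ groups. Cd53, which led the inguinal side of that list (2.17 ± 0.07), was bright in both depots, at means of 4110 and 904.7. Its inguinal excess was larger than that of the summed signal, so the higher inguinal sum rested on Cd53. Lyz2 (−1.0) and Lyz1 (−1.07) were epididymal, and their probe sets may not tell the 2 genes apart.

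Endothelial markers were weakly detected for 14 of 19 genes, and Pecam1 averaged 19.14 and 22.49. In that list 6 were epididymal and 2 inguinal, and Cdh5, at 41.4, 43.31 and 24.36 against 133.9, 178 and 186, had the largest difference (−1.81), and its other probe set gave −0.02. Summed endothelial signals were 2381 to 2563 in inguinal and 3387 to 3513 in epididymal arrays. Epithelial markers were weakly detected for 16 of 17 genes, with Epcam at 29.68 and 29.15, Elf3 (−1.27) among the 3 epididymal genes, and sums of 416 to 449 against 689 to 734. Markers of epididymis and testis were weakly detected for 11 of 15, with 4 epididymal genes and sums of 753 to 845 against 1059 to 1181. Lymphocyte markers were weakly detected for 11 of 12, and 3 were epididymal, a count that fell to 1 without epididymal GFP+ replicate 1 or inguinal GFP+ replicate 3. Of 15 skeletal muscle and Schwann cell markers, 3 were inguinal, led by the nerve growth factor receptor Ngfr (2.34, with another probe set at 0.44), and 4 epididymal. Sox10, the defining Schwann cell factor, averaged 39.15 and 39.95. Mbp of the same list, given below, was well above Sox10 in epididymal GFP+ cells. The list shares Des with the mural markers, and the lowest difference of both lists was −2.85. Olfactory receptor genes also summed higher in epididymal GFP+ arrays, at 879 to 1180 against 679 to 793. Their median difference was −0.22, against −0.17 for endothelial, −0.29 for epithelial, −0.21 for epididymis and testis and −0.13 for lymphocyte markers. In those marker lists 42.1%, 17.6%, 26.7% and 25% of genes differed, against 50.8% of all genes. At 2-fold or more the shares were 21.1%, 5.88%, 6.67% and 0%, against 5.77%. How far the sums exceed the lean of dim genes was not tested. The part of these lists in the depot results was not tested either.

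The depot difference in GFP- cells gave a measure on other arrays. There 6656 genes (53.7%) differed between inguinal and epididymal cells, 1284 of them by at least 2-fold. Of the 715 genes that differed by at least 2-fold in GFP+ cells, 522 (73%) differed in the same direction in GFP- cells, 64 in the opposite direction, and 129 did not pass the test there. Genes that differed by at least 2-fold in the same direction in both populations numbered 385, which was 53.8% of the GFP+ list and 30% of the GFP- list. All 15 leading inguinal and all 15 leading epididymal genes differed in the same direction in GFP- cells. For Shox2 (6.01 in GFP+ and 5.61 in GFP- cells), Tbx15 (4.55 and 4.43), Rpl39l (7.32 and 7.0) and Hoxa10 (3.52 and 3.37), the difference between the contrasts did not pass the test, at 0.40 or less. The same was true of Tcf21 (−4.93 and −5.02) and Wnt4 (−4.56 and −4.44). A missed threshold does not show that the contrasts were equal.

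The size of the depot difference depended on the population for many genes. The contrasts differed for 4313 of 12393 genes (34.8%), and for 439 of the 715 genes (61.4%). Among the leading genes they differed for 7 of 15 inguinal and 13 of 15 epididymal ones. The 715 genes and the leading genes were selected by the GFP+ difference, which enters this test. Their shares are therefore descriptions. In 11 of the 15 leading epididymal genes, the epididymal GFP- mean was above the GFP+ mean. Upk3b averaged 599.6 in epididymal GFP+ and 9459 in epididymal GFP- cells, so that its difference grew from −4.54 to −8.41. Hp and Hrh4 were the reverse, with epididymal means of 1308 and 9682 in GFP+ cells and 188.4 and 3843 in GFP- cells. Dkk2 differed more in GFP+ cells (7.47) than in GFP- cells (6.15), by 1.32 (adjusted p 0.0104). Inguinal GFP- cells averaged 2460 for Dkk2, against 6455 in inguinal GFP+ cells.

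Several gene groups had another balance in GFP- cells. Sterol and fatty acid synthesis genes had a median of 0.96 in GFP+ and 0.33 in GFP- cells, and the GFP+ difference was the more positive for 17 of 22 genes, against 16.1% of all genes, and the more negative for 1. Mural markers had a median of −0.59 in GFP+ and 0.10 in GFP- cells, with the GFP+ difference more negative for 15 of 22, against 18.7% of all genes. Macrophage markers had medians of −0.31 and 2.21, and the inguinal GFP- arrays summed to 21596 to 25635. Mesothelial markers had medians of −2.05 and −5.45. Cell cycle genes had the same median of 0.59 in both, yet the contrasts differed for 29 of 38 genes, against 34.8% of all genes. The GFP+ difference was more positive for 14 of them and more negative for 15. In GFP- cells 24 of the 38 were inguinal and 8 epididymal. For Hox genes the GFP+ difference was more negative for 15 of 31, against 18.7% of all genes, and more positive for 2, against 16.1%. In GFP- cells 8 of the 31 were inguinal and 11 epididymal. The inguinal ones included Hoxb2 (1.16), Hoxb3 (1.61), Hoxb5 (1.11) and Hoxb6 (1.39). The lack of inguinal genes in groups 1 to 8 seen in GFP+ cells thus did not extend to cluster B in GFP- cells. Hoxb9, at 0.84 in GFP+ and 3.46 in GFP- cells, averaged 467.5 in epididymal GFP+ and 76.13 in epididymal GFP- cells.

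**Figure D5:**
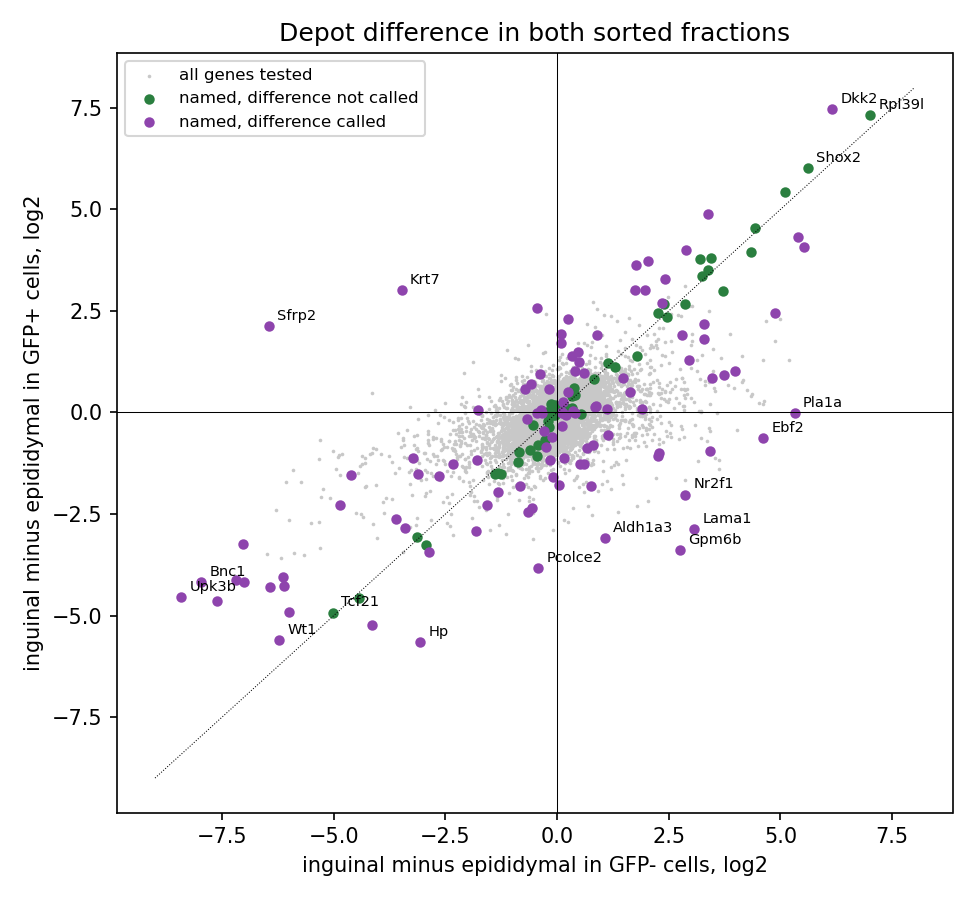
Inguinal minus epididymal difference (log2) in GFP- cells (x axis) against that in GFP+ cells (y axis), 1 point per gene, with the 154 named genes in purple where the contrasts differed and in green where that test was not passed. Shox2 (5.61 in GFP- and 6.01 in GFP+ cells) and Tcf21 (−5.02 and −4.93) lie near the dotted diagonal, and Sfrp2 (−6.45 and 2.12) and Ebf2 (4.61 and −0.64) lie far from it.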

How the data were processed

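RNA of 12 samples, 3 per group, was measured on Affymetrix arrays. Per the labels, cRNA carried biotin. The deposited table holds intensity (signal) per probe set on a linear scale, with no detection calls; how the signal was computed and normalized is not given in the sources used here. It was used without further scaling. Of 22626 probe sets, the platform annotation gave 20380 a single symbol, 691 several and 1555 none. Symbols were brought up to date with RefSeq (GRCm38.p6), and 24 stayed unmatched. Each gene was represented by its brightest probe set on average, giving 12393 genes.

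The log2(signal + 16) values entered 1 linear model of all 12 arrays (limma 3.58.1, R 4.3.3, lmFit, then eBayes with a variance trend). Its contrasts were the depot difference in GFP+ cells, that in GFP- cells, and the first minus the second, each with Benjamini-Hochberg adjustment over all genes and a threshold of 0.05. The code was tested on simulated data. The genes compared and the 32 lists (782 genes, 702 measured) were chosen with earlier results of these data known. The rule for named genes took Zfp423 and 4 markers, the 15 largest differences in each direction without overlap, up to 2 genes per list and direction (4 for positional lists), the strongest gene of each list that did not pass the test, and the 6 largest differences of the contrasts. It gave 154 genes. The other genes in the text, all list members, were chosen after their values were seen. Alternatives were array centring, quantile normalization, pseudocounts of 1 or 64, dim genes omitted, a gene's probe sets averaged, the GFP+ arrays alone, no trend, array weights, the replicate block, stricter calls (1.5-fold, or 0.01 as threshold), and the omission of single arrays. Promoter sequences are from RefSeq (GRCm38.p6).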

Additional observations from a re-analysis of the deposited data

Results flagged for a closer look

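For 107 of the 154 named genes the depot difference in GFP+ cells differed from that in GFP- cells by limma's test of the difference itself, where 34.8% of all genes did. The named genes were chosen in part by this test and in part by large GFP+ differences. Their share is therefore raised by the choice and is no result about them. Given here are the 31 genes whose contrasts differed by at least 2 on the log2 scale (4-fold). The value of each is the GFP+ difference minus the GFP- difference, both inguinal minus epididymal. No group had enough arrays for a search for outlying samples.

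A positive value means a GFP+ difference more toward inguinal than the GFP- difference. Of the leading epididymal genes, Upk3b gave 3.87, Bnc1 3.79, Bmp4 3.06, Stk26 2.98, Clu 2.81, Slpi 2.12 and Igfbp3 2.09. Rspo1 gave 3.79, the progenitor marker Dpp4 2.59, Mbp 3.06 and Esam 2.11. All of these were brighter in epididymal GFP- than in epididymal GFP+ cells, as with Mbp at means of 4048 and 626. Cd24a (2.05) and Cdkn2a (3.01) were higher in inguinal cells in the GFP+ contrast, with GFP- differences of 0.24 and −0.45, and their epididymal means were 1161 and 1335 in GFP- cells against 221 and 124.8 in GFP+ cells. Krt7 (6.48) and Sfrp2 (8.57) changed direction, being inguinal in GFP+ cells and epididymal in GFP- cells. Sfrp2 gave 2442, 3600 and 3135 in the epididymal GFP- arrays against 33.56 on average in epididymal GFP+ cells.

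A negative value means a GFP+ difference more toward epididymal. Lama1 gave −5.94, Gpm6b −6.13, Pla1a −5.33, Ebf2 −5.25, Nr2f1 −4.89, Col14a1 −4.36, Aldh1a3 −4.16, Pcolce2 −3.40 and Hp −2.58. Lama1, Nr2f1 and Col14a1 were among those that changed direction. They were epididymal in GFP+ cells and inguinal in GFP- cells (3.07, 2.87 and 3.42). Pla1a, a phospholipase gene, had means of 8792 and 8842 in the 2 GFP+ groups, 6493 in inguinal GFP- and 148.3 in epididymal GFP- cells. Ebf2, a factor of fat precursors, averaged 747.9, 1174, 818.3 and 18.44 in the same order. Twist2 gave −2.97, Inhbb −2.81, Hoxb9 −2.62, Cdh5 −2.55 and Hgf −2.42. Lyz1 (−3.32) and Lyz2 (−3.29), which may share probes, averaged 7627 and 4011 in inguinal GFP- cells.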

How the results depend on the processing

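The counts of differing genes stayed within 1.5 times their values under every alternative run except the minimum change of 1.5-fold, which by its construction keeps fewer genes. It left 2193 genes in GFP+ cells (664 inguinal, 1529 epididymal), 2687 in GFP- cells and 1744 for the difference of the contrasts. With each array left out in turn, the GFP+ count ran from 5698 to 6290 (inguinal 2602 to 2919, epididymal 3045 to 3374), the GFP- count from 6088 to 6781 and the count for the difference from 3897 to 4317. Between the GFP+ groups the replicate numbers gave no sign of pairing. Deviations of same-numbered GFP+ arrays correlated at 0.01, −0.01 and −0.06, and 1 of 6 arrays correlated best with its own number. Pairing of GFP+ with GFP- arrays was not examined this way, and so few arrays could miss it. The replicate block gave 6245 genes. The median over all genes was −0.003 after median centring and 0.019 after quantile normalization, against −0.041, and these scalings also changed calls of larger differences: Hoxc9 (0.18), Foxc2 (0.20), Ifi35 (0.17), Rarres2 (0.23), Cebpd (0.12), Ctnnb1 (0.08) and Fstl1 (0.06) passed and H2-Ab1 (−0.52) was lost after centring, while Tek (0.72) and Rarres2 (0.21) passed and Lcn8 (−0.40) and H2-Ab1 (−0.34) were lost after quantile normalization. Over the 154 named genes and their alternatives, 3632 of 3687 values kept direction and side of the threshold, 26 gained and 25 lost a call, and 4 reversed. The reversals came with the mean of all probe sets: Acta2 −0.38 (limma adjusted p 1.12e-05), Cebpd −0.26 (0.00235), Csf1r −0.16 (0.0342) and Flt1 −0.06 (0.652). That setting also ended the calls of Inhbb (0.02), Irf4 (−0.25), H2-Ab1 (−0.15), Ighm (−0.23) and Egfl7 (0.42), and Col3a1 (−0.18) and Nid1 (−0.16) passed. The cause was not tested. Quantile normalization lowered the epididymal counts of macrophage markers to 3, lymphocyte markers to 1 and interferon genes to 2. Signals without detection calls limit what can be said of dim genes.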
